A study of Macaca mulatta with 2 samples.

Results

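The genes described here are *CA6*, *GSTT1*, *PLAC8*, *CD7* and *PECAM1*, which were chosen by their enrichment in naive T cells of these same data. They are 5 of the 35432 genes counted in 7923 cell barcodes, and all 5 passed the filter that left 14459 genes and 7601 cells. The cells were DP T cells, which carry both CD4 and CD8, sorted from the blood of 1 healthy, untreated rhesus monkey aged 6 years. CD4+ cells were taken from fresh blood mononuclear cells with releasable magnetic beads, CD8+ cells were then taken from them with CD8 beads, and the cells were labelled with antibodies to CD4 and CD8 that carry a DNA tag, the feature barcode (FB). The RNA and the CD4 and CD8 FB of each cell were read in 2 libraries that share all 7923 barcodes, so these are 2 readings of the same cells and there is no replicate.

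Naive T cells have left the thymus and have not yet met their antigen. They carry *CCR7*, the chemokine receptor that guides them into lymph nodes, and *LEF1*, a transcription factor that keeps them undifferentiated. *SOX4* is a transcription factor of thymocytes that persists in recent thymic emigrants, *GZMB* encodes the killing enzyme granzyme B, *FOXP3* directs regulatory T cells, and *CCR9* encodes a receptor that guides cells to the gut. Among the genes described here, *CD7* encodes a surface protein that appears early in T cell development and binds SECTM1. *PECAM1* encodes CD31, an inhibitory adhesion receptor that marks naive CD4 T cells recently out of the thymus. *CA6* encodes a secreted carbonic anhydrase best known from saliva, *GSTT1* encodes an enzyme that joins glutathione to reactive compounds, and *PLAC8* encodes a small cysteine-rich protein made by several kinds of leukocyte.

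In the RefSeq annotation of Mmul_10, the build to which the authors mapped the reads, *CA6* lies on chromosome 1 from 215516846 to 215560060, *GSTT1* on chromosome 10 from 28154874 to 28164799, and *PLAC8* on chromosome 5 from 50585255 to 50610051. *PECAM1* lies on chromosome 16 from 60880550 to 60963969, and *CD7* on the same chromosome from 78668360 to 78673169. *PLAC8* is on the plus strand and the others are on the minus strand. *GSTT1* lies inside the long gene model *LOC710293* of the same strand, of which 0 exons fall within *GSTT1*. It also has related copies, so its counts could share reads with them and are uncertain to that extent.

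The 250 bases before the outermost annotated start were read for *CA6*, *GSTT1*, *PLAC8* and *PECAM1*. Matches to CTTTGT (bound by SOX factors) and TGTGGT (bound by RUNX factors) were sought on both strands. *CA6* and *PLAC8* have 2 distinct annotated starts each, and *GSTT1* and *PECAM1* have 5 each. Which start was used in these cells was not tested. Matches of different motifs did not overlap here, and a match only describes the letters in this window. CTTTGT occurred before *PLAC8* (69 bases) and *PECAM1* (42 bases), and in 12.6% of the windows of 20787 protein-coding genes. TGTGGT occurred before *PLAC8* (9 bases) and *PECAM1* (212 bases), and in 11.2% of all windows. The windows of *CA6* and *GSTT1* held neither. The windows of *PLAC8* and *PECAM1* are shown, as examples with both motifs, 5′ to 3′ on the strand of the gene, with matches in capitals, at chr5:50585005-50585254 (plus) and chr16:60963970-60964219 (minus).
PLAC8: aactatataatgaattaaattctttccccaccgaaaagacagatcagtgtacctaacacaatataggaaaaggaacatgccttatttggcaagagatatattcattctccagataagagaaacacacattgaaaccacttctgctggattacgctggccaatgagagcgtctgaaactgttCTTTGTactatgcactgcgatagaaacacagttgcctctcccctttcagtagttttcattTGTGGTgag
PECAM1: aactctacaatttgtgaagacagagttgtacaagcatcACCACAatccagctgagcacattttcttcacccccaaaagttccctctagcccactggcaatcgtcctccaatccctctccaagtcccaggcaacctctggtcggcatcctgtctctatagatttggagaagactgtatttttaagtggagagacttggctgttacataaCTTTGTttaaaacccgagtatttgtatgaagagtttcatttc

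A *CD3E* UMI, that is, a uniquely counted RNA molecule of the CD3 epsilon chain, was found in 7311 of the 7601 kept cells (96.2%), with a median of 3656 UMIs per cell. These CD3E+ cells were divided into exclusive gates by raw UMIs. The naive gate held 878 cells (12.01%) with *CCR7* and *LEF1*, at most 2 *GZMB* UMIs and none of *FOXP3* or *CCR9*, and it was split into 65 SOX4+ and 813 SOX4-negative cells. The other gates were 1350 cells with only 1 of *CCR7* and *LEF1*, 1722 with neither, 152 FOXP3+ cells, 439 CCR9+ cells and 2770 GZMB+ cells with 3 or more *GZMB* UMIs. Median depth ran from 3303 UMIs in the GZMB+ gate to 4695 in the CCR9+ gate, so a missing UMI is weaker evidence in some gates than in others. The sort label held less well for CD8. The median CD8 FB of CD3E+ cells was 342 UMIs, but 86 cells with B cell genes and no CD3 gene reached 330.5 at their 90th percentile, and 435 of the 878 naive cells lay at or below that level.

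All 5 genes were higher in the naive gate than in the other 6433 CD3E+ cells. Levels are the summed UMIs of a gene in a group, scaled to counts per 1000000 UMIs of that group (CPM), and intervals are 95% exact intervals that cover counting error only, as all cells came from 1 animal and do not replicate it. The level of *CA6* was 57.1 CPM (50.04 to 64.8) in the naive gate and 16.6 (15.1 to 18.2) in the others, a log2 ratio of 1.78 (1.55 to 2.01). *GSTT1* had 69.1 CPM (61.4 to 77.6) against 22.2 (20.4 to 24.1), a log2 ratio of 1.64. *PLAC8* had 175 CPM (162 to 188) against 77.9 (74.5 to 81.4), a log2 ratio of 1.17. *CD7* had 549 CPM (527 to 572) against 247 (241 to 253), a log2 ratio of 1.16, and *PECAM1* had 148 CPM (137 to 161) against 61.5 (58.5 to 64.6), a log2 ratio of 1.27. A gene was called where its log2 ratio was at least 1 in size. Of 10019 genes with 50 or more UMIs in the 2 groups, 2.02% were called higher, and 5 of the 5 genes described here were. Since the genes were chosen for this enrichment on these cells, that count is a description and nothing is read from it.

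Each gene was found in only some naive cells. A *CA6* UMI was present in 19.4% of naive cells (16.8 to 22.1), a *GSTT1* UMI in 26.5% (23.6 to 29.6), a *PLAC8* UMI in 41.0% (37.7 to 44.3), a *PECAM1* UMI in 47.6% (44.3 to 50.97) and a *CD7* UMI in 84.2% (81.6 to 86.5). When each cell was thinned, that is, redrawn to 2000 UMIs, leaving 856 naive cells and dropping 22, these shares became 10.3%, 13.6%, 26.6%, 25.6% and 62.4%. In the 86 B gene cells, whose median depth was 4137.5 UMIs against 4272.5 in the naive gate, *CA6* and *GSTT1* had 0 UMIs, which by the limit of 3 counts allows a share of up to 3.49%. *CD7* was found in 2 of those cells, *PLAC8* in 4 (1 of which held 64 of its 108 UMIs) and *PECAM1*, which B cells also express, in 11 (12.8%).

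**Figure D1:**
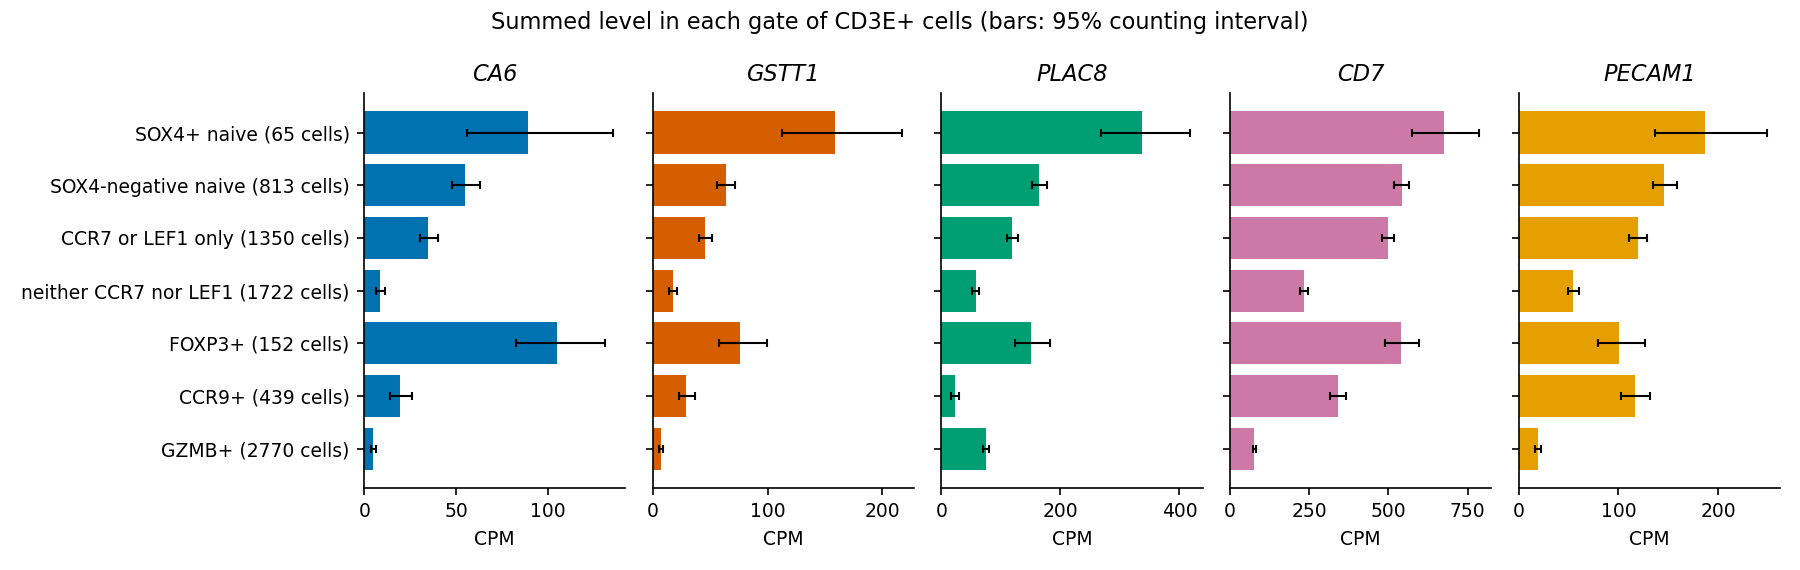
Summed level of each gene (x axis, CPM, a separate scale per gene) in 7 exclusive gates of CD3E+ cells, with 95% counting intervals. Levels are lowest in the GZMB+ gate for 4 genes, *PLAC8* is lowest in the CCR9+ gate at 22.4 CPM, and *CA6* reaches 105 CPM in the FOXP3+ gate.

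The order of the gates differed from gene to gene. *CA6* was highest in FOXP3+ cells at 105 CPM (82.8 to 131), followed by SOX4+ naive cells at 89.4 (56.0 to 135), whose interval overlapped both the FOXP3+ cells and the SOX4-negative naive cells at 55.05 (47.9 to 62.9). It then fell to 34.9 CPM in cells with only 1 of *CCR7* and *LEF1*, 19.3 in CCR9+ cells, 8.67 in cells with neither and 4.66 (3.46 to 6.14) in GZMB+ cells. *CA6* thus spanned a log2 ratio of 3.61 (3.17 to 4.08) between naive and GZMB+ cells.

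*GSTT1* was highest in SOX4+ naive cells at 158 CPM (113 to 217). FOXP3+ cells with 76.3 CPM (57.6 to 99.1) and SOX4-negative naive cells with 63.5 (55.8 to 71.9) overlapped each other. Lower down were cells with only 1 of *CCR7* and *LEF1* at 45.4, CCR9+ cells at 28.9, cells with neither at 17.3 and GZMB+ cells at 7.27 CPM.

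*PLAC8* had 337 CPM (269 to 418) in SOX4+ naive cells, 165 (152 to 178) in SOX4-negative naive cells and 151 (124 to 182) in FOXP3+ cells, the last 2 overlapping. Cells with only 1 of *CCR7* and *LEF1* had 119 CPM, GZMB+ cells 74.2 and cells with neither 57.6. The lowest level was in CCR9+ cells, at 22.4 CPM (16.7 to 29.4).

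*CD7* varied least among the gates without *GZMB*. It had 674 CPM (576 to 785) in SOX4+ naive cells, 541 in both SOX4-negative naive and FOXP3+ cells, 498 (480 to 516) in cells with only 1 of *CCR7* and *LEF1*, 340 (317 to 365) in CCR9+ cells and 234 (222 to 246) in cells with neither. In GZMB+ cells it was 76.4 CPM (71.3 to 81.8). *PECAM1* had 187 CPM (137 to 249) in SOX4+ naive cells, 146 in SOX4-negative naive cells, and 119.6, 117 and 101 CPM in cells with only 1 of *CCR7* and *LEF1*, CCR9+ and FOXP3+ cells, 3 gates whose intervals overlapped. It had 54.6 CPM in cells with neither and 19.3 in GZMB+ cells.

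**Figure D2:**
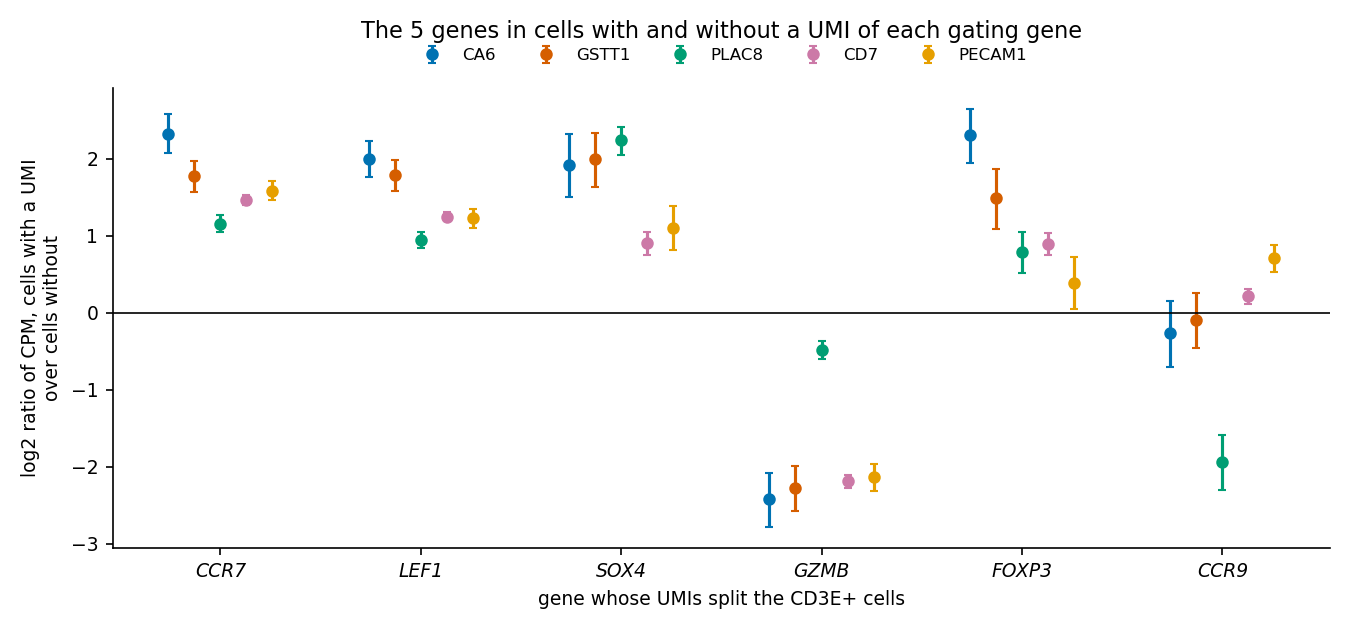
Log2 ratio of the CPM of each gene (y axis) between CD3E+ cells with and without a UMI of each of 6 gating genes (x axis), with 95% exact intervals. All points lie above 0 for *CCR7*, *LEF1*, *SOX4* and *FOXP3* and below 0 for *GZMB*, and they fall on both sides for *CCR9*.

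For single gating genes over all CD3E+ cells, the 2163 cells with *CCR7* exceeded those without by a log2 ratio from 1.16 (*PLAC8*) to 2.33 (*CA6*), and the 1837 cells with *LEF1* by 0.95 (*PLAC8*) to 2.001 (*CA6*). Among the 162 cells with *FOXP3* the ratio ran from 0.39 (0.05 to 0.72) for *PECAM1* to 2.31 (1.95 to 2.65) for *CA6*. Among the 3273 cells with any *GZMB* UMI, *CA6*, *GSTT1*, *CD7* and *PECAM1* were lower, with log2 ratios of -2.42, -2.27, -2.19 and -2.13, and *PLAC8* was less so at -0.48 (-0.60 to -0.37). The 160 cells with *SOX4* exceeded the rest by 1.92 for *CA6*, 2.0001 for *GSTT1*, 2.24 for *PLAC8*, 0.90 for *CD7* and 1.10 for *PECAM1*. The *PLAC8* ratio fell to 1.56 (1.32 to 1.78) without cells that had 3 or more UMIs of markers of plasmacytoid dendritic cells (pDC), an alternative chosen after the data had been seen. Of the 198 *PLAC8* UMIs in SOX4+ cells outside the naive gate, 115 came from 2 such cells.

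The 479 cells with *CCR9* separated the genes. *PLAC8* was lower in them, with a log2 ratio of -1.93 (-2.30 to -1.59), *CA6* (-0.26, -0.71 to 0.16) and *GSTT1* (-0.09, -0.46 to 0.26) did not differ beyond counting error, and *CD7* (0.21, 0.11 to 0.31) and *PECAM1* (0.71, 0.53 to 0.88) were higher. Within the CCR9+ gate, the 96 cells with both *CCR7* and *LEF1* had 42.8 CPM of *PLAC8* (27.7 to 63.2) against 175 in the naive gate, a log2 ratio of -2.03 (-2.67 to -1.46), and 115 CPM of *PECAM1* (88.9 to 146) against 148. CCR9+ cells also carried more CD8 FB, with a median of 450 UMIs against 335. Compared with naive cells within the range of the highest CD8 FB quartile of the naive gate, 152 CCR9+ cells still had a *PLAC8* log2 ratio of -1.95 (-2.62 to -1.34), while *PECAM1* was at -0.06 (-0.41 to 0.28).

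Taken over whole gates, FOXP3+ cells differed from the naive gate in *CA6* and *PECAM1*. Their log2 ratio against the naive gate was 0.88 (0.49 to 1.25) for *CA6* and -0.56 (-0.93 to -0.21) for *PECAM1*, and the intervals of *GSTT1*, *PLAC8* and *CD7* included 0. The 67 FOXP3+ cells that also had *CCR7* and *LEF1* reached 163 CPM of *CA6* (121 to 214), a log2 ratio of 1.51 (1.05 to 1.96). In the same 67 cells *PECAM1* was at 150.3 CPM (110.4 to 199.8), which was 0.02 (-0.44 to 0.45) on the log2 scale from the naive gate. The 85 FOXP3+ cells without both had 64.1 CPM of *PECAM1*, a log2 ratio of -1.21 (-1.82 to -0.66). The CD8 FB moved with this result, since the 67 cells had a median of 159 UMIs. Against naive cells below the median CD8 FB of the naive gate, the 45 such FOXP3+ cells had a *CA6* log2 ratio of 1.19 (0.63 to 1.72). In the lowest CD8 FB quartile, with 29 cells, it was 0.56 and its interval included 0 (-0.22 to 1.26). *PLAC8* was lower in those 29 cells, at 199 CPM (126 to 299) against 347 (308 to 390) in the naive cells of that quartile. The intervals of *GSTT1*, *CD7* and *PECAM1* overlapped there.

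Within the naive gate, *GSTT1* and *PLAC8* were the genes that differed most with *SOX4*. The log2 ratio of SOX4+ to SOX4-negative cells was 1.32 (0.79 to 1.81) for *GSTT1*, 1.03 (0.69 to 1.37) for *PLAC8*, 0.70 (-0.005 to 1.34) for *CA6*, 0.36 (-0.11 to 0.79) for *PECAM1* and 0.32 (0.08 to 0.55) for *CD7*. Of 5914 genes with enough UMIs, 2.84% were called higher, and 2 of the 5 were, with a median log2 ratio of 0.70 over the 5 and -0.05 over all genes tested. The SOX4+ cells were shallower, with a median of 3343 UMIs against 4331, and they had less CD8 FB, with a median of 118 UMIs against 367. Within the lowest CD8 FB quartile, the 42 SOX4+ and 178 SOX4-negative cells had log2 ratios of 0.72 (-0.02 to 1.41) for *GSTT1*, 0.37 (-0.06 to 0.78) for *PLAC8*, 0.06 for *CD7*, -0.02 for *PECAM1* and -0.12 for *CA6*, so no gene was called there. That comparison was added after the data had been seen.

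The level of the 5 genes fell with the CD8 FB inside the naive gate. Quartiles of the gate held 220, 218, 220 and 220 cells, with a median CD8 FB of 85.5, 222.5, 470 and 851 UMIs. From the lowest to the highest quartile, *CA6* had 118, 59.1, 36.2 and 34.9 CPM. *PLAC8* had 347, 188, 121 and 103 CPM. *GSTT1* had 112, 68.7, 56.7 and 53.1 CPM. For these 3 genes the third and the highest quartile overlapped, and the step from the lowest to the second quartile was a log2 ratio of -0.995 (-1.4997 to -0.50) for *CA6*, -0.89 (-1.16 to -0.61) for *PLAC8* and -0.70 (-1.18 to -0.22) for *GSTT1*. *PECAM1* had 215, 151, 120.3 and 127 CPM, and *CD7*, which changed least, had 651, 535, 564 and 487 CPM.

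**Figure D3:**
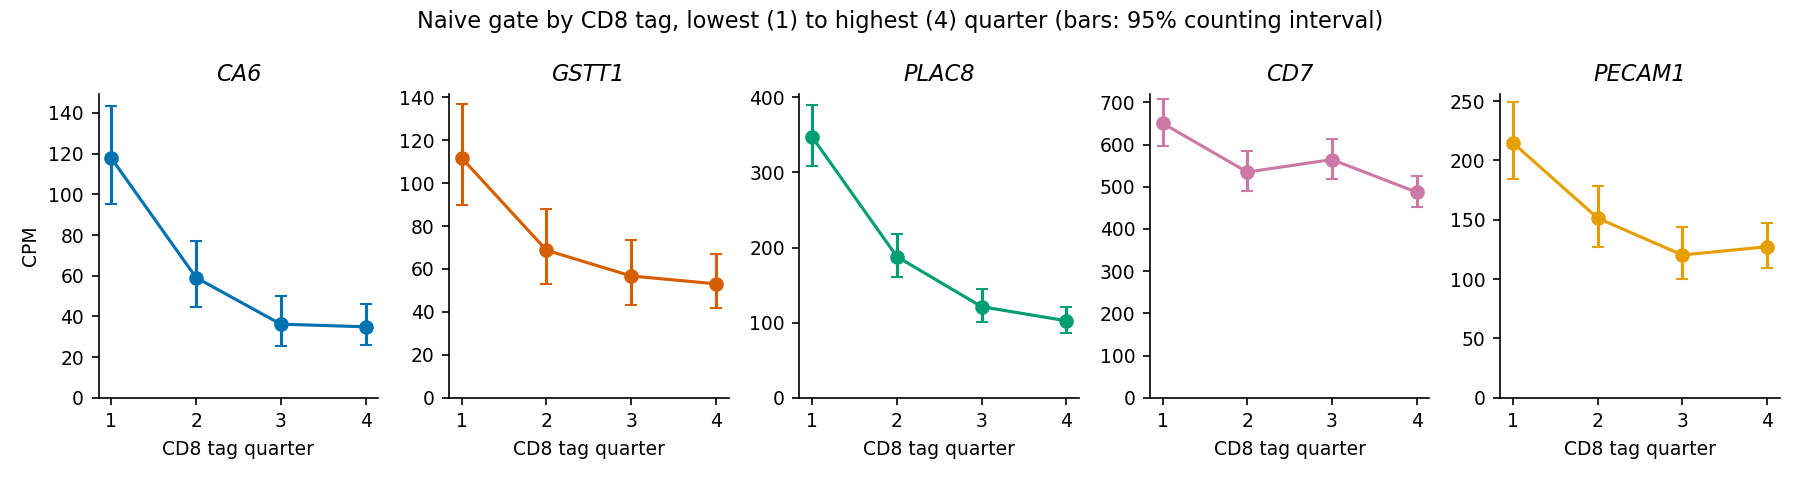
Summed level of each gene (y axis, CPM, a separate scale per gene) in quartiles of the naive gate from the lowest to the highest CD8 FB (x axis), with 95% counting intervals. *CA6* goes from 118 to 34.9 CPM and *PLAC8* from 347 to 103 CPM, and the third and the highest quartile overlap in both genes.

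Highest against lowest quartile, the log2 ratio was -1.76 (-2.06 to -1.46) for *PLAC8*, -1.75 (-2.28 to -1.24) for *CA6*, -1.07 (-1.54 to -0.61) for *GSTT1*, -0.76 (-1.07 to -0.45) for *PECAM1* and -0.42 (-0.58 to -0.25) for *CD7*. Of 3947 genes with enough UMIs, 0.887% were called lower, and 3 of the 5 were, with a median of -1.07 over the 5 and 0.09 over all genes tested. Among SOX4-negative naive cells alone the ratios were -1.67 for *PLAC8*, -1.75 for *CA6*, -0.93 for *GSTT1*, -0.74 for *PECAM1* and -0.42 for *CD7*. Several other values moved with the tag. Median depth went from 3620 to 5259 UMIs, cells with *SOX4* from 19.1% (14.1 to 24.9) to 1.36% (0.282 to 3.93), *CCR7* from 545 to 337 CPM and *CD8A* from 4.86 to 278 CPM. *CD8A* had 4 UMIs in the 220 cells of the lowest quartile, whose median CD8 FB was below that of the B gene cells (139.5), so these cells cannot be told apart by these readings from CD4+ cells without CD8. *CD4* differed less, with 121 CPM (98.8 to 148) in the lowest and 155 (135 to 177) in the highest quartile.

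Outside the naive gate the relation to the CD8 FB took other forms. Cells were split at the median of all CD3E+ cells. With only 1 of *CCR7* and *LEF1*, *PLAC8* (-0.81, -1.03 to -0.59) and *GSTT1* (-0.63, -0.99 to -0.28) were lower at high CD8 FB on the log2 scale, while *CD7* (0.05, -0.06 to 0.16) and *PECAM1* (-0.03, -0.25 to 0.20) did not differ beyond counting error. In cells with neither, *CD7* was higher at high CD8 FB, by 0.61 (0.46 to 0.76). In the GZMB+ gate all 5 genes were higher at high CD8 FB, by log2 ratios of 3.01 (1.56 to 4.95) for *CA6*, 2.05 (1.77 to 2.34) for *CD7*, 1.60 (1.09 to 2.14) for *PECAM1*, 1.23 (0.45 to 2.08) for *GSTT1* and 0.50 (0.29 to 0.72) for *PLAC8*. The *CA6* value rests on 46 and 4 UMIs.

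Much of what was left of these genes in the GZMB+ gate sat in few cells. The 85 GZMB+ cells (3.07%) that also had *CCR7* and *LEF1* held 58.0% of the gate's 50 *CA6* UMIs, 42.3% of its 78 *GSTT1* UMIs, 32.0% of its *CD7* UMIs, 30.4% of its *PECAM1* UMIs and 14.7% of its *PLAC8* UMIs. These 85 cells had a median of 7758 UMIs and a CD8 FB of 1024, against 3303 and 353.5 in the whole gate. Whether they were droplets with 2 cells was not tested. Without them the gate had 2.10 CPM of *CA6*, 4.50 of *GSTT1*, 55.9 of *CD7*, 14.4 of *PECAM1* and 68.0 of *PLAC8*. The rise with CD8 FB was 1.77 (1.46 to 2.09) for *CD7* and 1.34 (0.77 to 1.94) for *PECAM1* among the remaining cells.

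*PLAC8* was the exception in GZMB+ cells, with 796 UMIs in 312 of the 2770 cells and up to 76 in 1 cell. The 11 GZMB+ cells with 6 or more *PLAC8* UMIs held 267 of them, had a median of 8323 UMIs, and had 549 CPM (417 to 709) of the pDC marker genes, against 32.9 (29.3 to 36.9) in GZMB+ cells without *PLAC8*. pDC are known to express *GZMB* and *PLAC8*. The 11 cells also had a median of 7 UMIs of CD3 genes. GZMB+ cells without *PLAC8* had 11, at a median depth of only 3254 UMIs. These CD3 counts are not scaled to depth, and the identity of the 11 cells was not tested. The list has 5 genes, of which 4 are in the feature list and 3 had UMIs, mainly *IRF7*, which other leukocytes also express, and *TCF4*, and the defining marker *CLEC4C* was at 0. In the whole naive gate the list had 21.0 CPM, and in the GZMB+ gate 38.8. A separate cut, 3 or more UMIs of the list, also took 11 GZMB+ cells, of which 6 held 196 *PLAC8* UMIs. The 11 cells of this cut had a median of 13 UMIs of CD3 genes, against 11 in the rest of the gate, again not scaled to depth. Their median depth was 9726 UMIs, against 3300 in the rest of the gate. Without them *PLAC8* stood at 56.5 CPM (52.1 to 61.2), and the naive gate under the same cut exceeded it by a log2 ratio of 1.64 (1.48 to 1.79) in place of 1.24 (1.09 to 1.38).

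**Figure D4:**
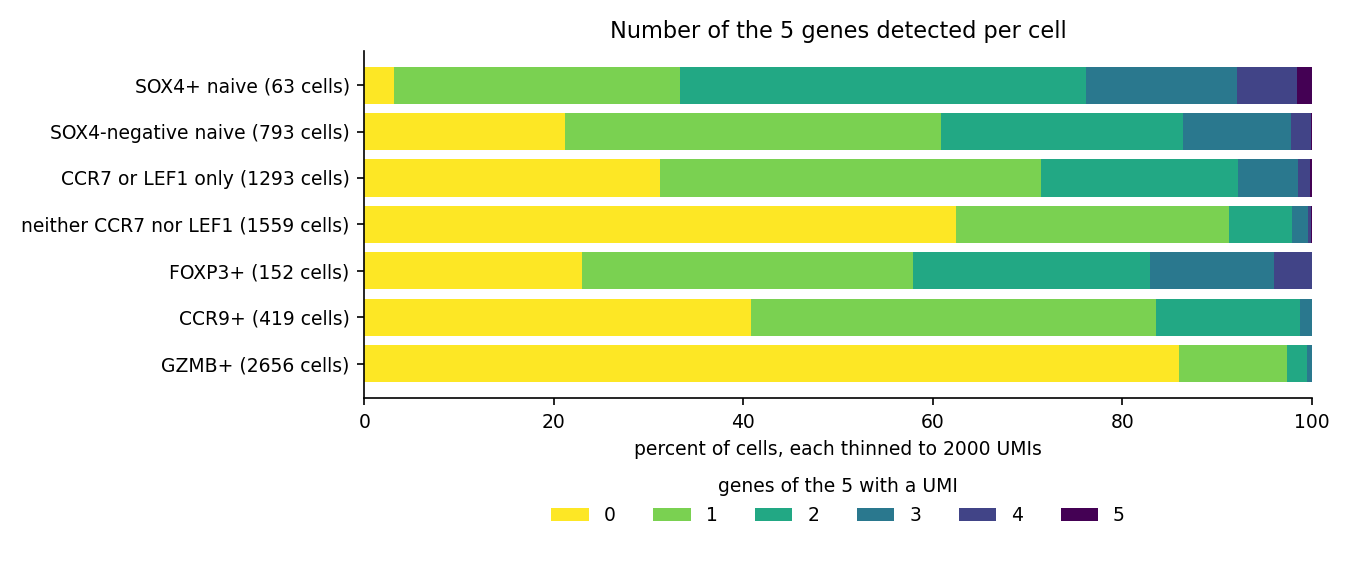
Percent of cells (x axis), each thinned to 2000 UMIs, in which 0 to 5 of the 5 genes had a UMI, by gate. In SOX4+ naive cells 3.17% had none of the 5, against 86.0% of GZMB+ cells.

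Co-detection was read in thinned cells. In the naive gate, 41.1% of 856 cells (37.8 to 44.5) had 2 or more of the 5 genes, against 11.6% (10.9 to 12.5) of 6079 other CD3E+ cells. That difference follows from the choice of naive-enriched genes and is a description. The share was 66.7% (53.7 to 78.0) in SOX4+ naive cells, 39.1% (35.7 to 42.6) in SOX4-negative naive cells, 42.1% (34.2 to 50.4) in FOXP3+ cells, 28.5% in cells with only 1 of *CCR7* and *LEF1*, 16.5% in CCR9+ cells, 8.72% in cells with neither and 2.64% (2.06 to 3.32) in GZMB+ cells. The commonest naive patterns were *CD7* alone in 26.5% of cells, none of the 5 in 19.9%, *CD7* with *PECAM1* in 8.88% and *CD7* with *PLAC8* in 8.18%. All 5 together were found in 2 naive cells. Unthinned, 68.6% of naive cells had 2 or more.

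Over all CD3E+ cells every pair was found together more often than the product of its 2 shares, by 1.68 times (*PLAC8* and *CD7*) to 3.17 times (*CA6* and *PLAC8*). The genes were chosen as higher in the same naive cells, which by itself gives such an excess, so nothing is read from it. Within the naive gate this excess was smaller for each of the 10 pairs. *GSTT1* and *PLAC8* had a ratio of 1.65, *CA6* and *PLAC8* 1.54 and *GSTT1* and *PECAM1* 1.42, and the other 7 pairs lay between 0.922 (*CA6* and *GSTT1*) and 1.17. *PLAC8* was found in 44.0% (34.8 to 53.5) of naive cells with *GSTT1* and in 23.9% (20.9 to 27.2) of those without. It was found in 40.9% (30.5 to 51.9) of cells with *CA6* and in 25% (22.0 to 28.2) of those without. *CA6* and *GSTT1* were not found together beyond this, with *GSTT1* in 12.5% (6.41 to 21.3) of cells with *CA6* and 13.7% (11.3 to 16.3) of those without.

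**Figure D5:**
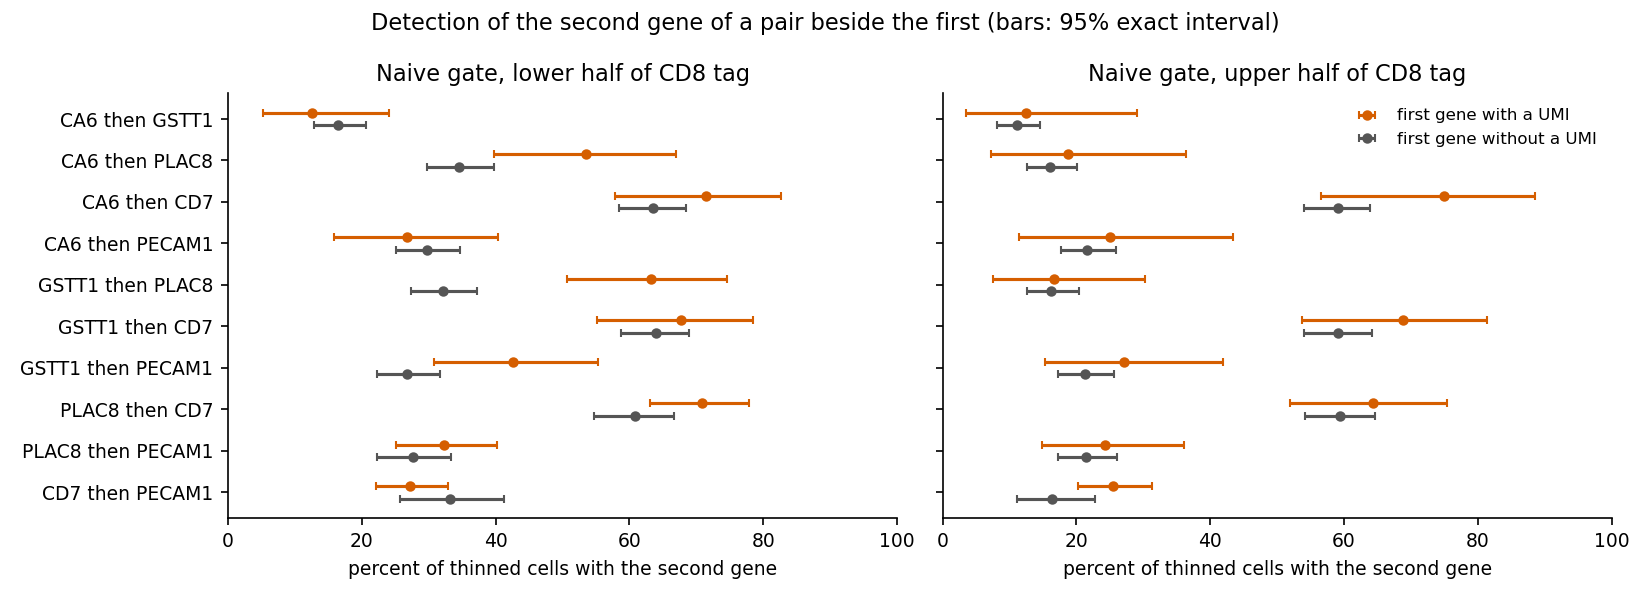
Percent of thinned naive cells with the second gene of a pair (x axis) among cells with and without the first, in cells below and above the median CD8 FB of the gate, with 95% exact intervals. Below it *PLAC8* was in 63.2% of cells with *GSTT1* and 32.1% of those without, and above it in 16.7% and 16.2%.

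The pairings with *PLAC8* were seen at low CD8 FB. Below the median CD8 FB of the gate, *PLAC8* was found in 63.2% (50.7 to 74.6) of cells with *GSTT1* against 32.1% (27.3 to 37.2) without, and in 53.6% (39.7 to 67.0) of cells with *CA6* against 34.6% (29.8 to 39.7). Above it the same shares were 16.7% (7.48 to 30.2) against 16.2%, and 18.8% (7.21 to 36.4) against 16.1%, from 48 cells with *GSTT1* and 32 with *CA6*. Whether the excess differed between the lower and the upper cells was not tested. Inside the lowest quartile, *PLAC8* was in 71.7% (56.5 to 84.0) of cells with *GSTT1* against 41.9% (34.3 to 49.8), and in 59.4% (40.6 to 76.3) of cells with *CA6* against 46.4% (39.0 to 54.0), the last pair of intervals overlapping.

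Genes with the most similar pattern were sought over 14 points, the 7 gates each split at the CD8 FB median, among 7311 genes with a symbol and 200 or more UMIs, by Pearson's r of log2(CPM + 10). The points share 1 library, and several are defined by *CCR7*, *LEF1* or *SOX4*, so r is a description. All 14 points had equal weight, though the SOX4+ naive point at high CD8 FB held only 7 cells, with 0 *CA6* UMIs. For *CA6* the genes were *DIP2C* (0.96), *TIE1* (0.92, from 219 UMIs in CD3E+ cells) and *HSBP1L1* (0.91). For *GSTT1* they were *IL6ST*, the signalling subunit of the IL-6 receptor family (0.96), *RGS10* (0.95) and *ACTN1* (0.94). For *PLAC8* the values were lower, with *SYPL1* (0.87), *MAN2A1* (0.87) and *IPCEF1* (0.86). For *CD7* they were *ZSCAN18* (0.97) and *ITGA6* (0.96), and for *PECAM1* the translation genes *RPL9*, *RPL14* and *NACA* (each 0.98). Among the 5 genes themselves, r ran from 0.39 for *PLAC8* with *PECAM1* to 0.91 for *CD7* with *PECAM1*.

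Of a list of 30 naive T cell genes, 21 had 50 or more UMIs in the naive gate and the other CD3E+ cells together. Among these, 6 were called higher in the naive gate and 0 lower, with a median log2 ratio of 0.51 against -0.17 over all genes tested. *ACTN1*, which encodes an actin crosslinker, had 1.33 (1.125 to 1.54), *IL6ST* 1.31 and *BACH2*, a repressor of effector genes, 1.30, while *IL7R*, the IL-7 receptor, had 0.19 (0.15 to 0.23). With *SOX4*, 2 of 19 were called higher, *RETREG1* (1.18, -0.21 to 2.33) and *TCF7*, of the same family as *LEF1* (1.16, 0.81 to 1.503). In the highest against the lowest CD8 FB quartile, 2 of 16 were called lower, among them *FOXP1* (-1.04, -1.42 to -0.66), and 1 higher, *MYC* (1.10, 0.44 to 1.82).

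Of 10 recent thymic emigrant genes, 3 were called higher and 2 lower in the naive gate, with a median log2 ratio of -0.04. *SOX4* had 2.22, and *CR1* had 1.116 and *CR2* 1.03, both of which encode complement receptors. *PTK7* had -3.66 (-8.98 to -1.14), which rests on 1 UMI in the naive gate, and *ADAM23* had -1.72. *CR1* went the other way from *SOX4* inside the gate, with -1.62 (-3.51 to -0.24) in SOX4+ cells and 1.22 (0.50 to 2.01) in the highest against the lowest CD8 FB quartile. The first of these values rests on 4 *CR1* UMIs in SOX4+ cells. Of 17 memory and effector genes with enough UMIs, 15 were called lower and 0 higher in the naive gate, with a median of -3.02, led by *CX3CR1*, a receptor of cytotoxic effector cells, at -5.68 and the chemokine gene *CCL5* at -5.34. With *SOX4*, 5 of 9 were called lower and 0 higher, with a median of -1.01, among them *ITGB1* (-1.33), *NKG7* (-1.32) and *GZMK* (-1.16). The *NKG7* and *GZMK* values rest on 7 UMIs each in SOX4+ cells. In the highest against the lowest CD8 FB quartile of the naive gate, 4 of 9 of these were called higher and 0 lower, *CST7* (1.66), *S100A4* (1.45), *GZMK* (1.43) and *NKG7* (1.22), with a median of 0.93. Over all genes tested the medians were -0.17, -0.05 and 0.09 in these comparisons. For calls lower in the naive gate or with *SOX4*, and higher with the CD8 FB, the share over all genes was not computed. All such counts of listed genes are a description.

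A list of genes set beside the 5 was read in the same comparisons. The list had 46 genes, among them carbonic anhydrases, glutathione transferases, PLAC8 family genes and T cell surface genes set beside *CD7*. It also held genes set beside *PECAM1*, not all of which are partners of CD31. Of the 46, 20 had enough UMIs, and 0 were called higher and 1 lower in the naive gate. Their median log2 ratio was -0.26, against -0.17 over all genes tested. Of all genes tested 2.02% were called higher, so 0 of 20 is near that share and nothing is read from it. The one called lower was *LAIR1*, an inhibitory collagen receptor, at -2.06 (-2.23 to -1.89). *CD38*, a binding partner of CD31, was the highest at 0.71 (0.41 to 0.99). With *SOX4*, *GSTM4* was the highest of 16 at 0.88 (0.15 to 1.54) and 2 were called lower, *ICAM2* at -1.51 and *CA11*, which had 0 UMIs in SOX4+ cells and 54 in the others. By the limit of 3 counts, 0 UMIs in SOX4+ cells allows 12.2 CPM. *CA11* had 13.8 CPM in SOX4-negative cells, so its call does not show a difference. None of 15 was called with the CD8 FB, where 0.887% of all genes tested were called lower, so nothing is read from that count either.

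Markers of other cells were also read in the naive gate. Platelet genes, which matter because platelets carry CD31, summed to 1.45 CPM, with *PPBP*, *ITGA2B*, *TUBB1* and *GP1BB* at 0. Naive cells with *PECAM1* had 0.963 CPM of them and those without had 1.93. Monocyte genes summed to 2.65 CPM, NK cell genes to 2.65, red blood cell genes to 2.17, cycling genes to 8.91 and B cell genes to 99.95 CPM, against 3.58, 83.5, 279.9, 16.4 and 72.7 CPM in the other CD3E+ cells. Naive cells with a *CD7* UMI had more of the B cell genes than those without (109 against 44.1 CPM) and those with *CA6* had less (52.5 against 111). The intervals overlapped for *PLAC8* (115 against 89.0 CPM), *GSTT1* (107 against 97.1) and *PECAM1* (102 against 97.8). Their part in the results was not tested.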

How the data were processed

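The authors mapped reads of the 5′ RNA library to Mmul_10 with Cell Ranger 3.1.0 and STAR 2.5.1b, matched antibody tags to their reference, and deposited the UMI counts of every gene and tag in each barcode, without normalization. No source used here gives the annotation release. The deposited counts hold 35432 genes, of which 23817 have a symbol, and a table of gene names gave one to 675 more. The deposited lists of genes and barcodes were used only as names, and 0 columns belonged to other samples.

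The filter asked for genes found in 3 or more barcodes, for 200 to 4000 genes per cell, and for a mitochondrial share of no more than 20%. Unnamed features placed among the 13 named mitochondrial genes counted as mitochondrial. Kept cells had a median of 3636 UMIs. Scrublet, at an expected 6%, marked 0 cells, so it did not work and no doublet was removed. Thinning used seed 1 and left 6935 of 7311 CD3E+ cells. The interval of a log2 ratio is the exact binomial one for how the UMIs of both groups divide, and a ratio was called for genes with 50 or more UMIs in both groups together. With 1 animal there is no test, and PCR and droplets add error beyond counting.

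The genes and lists were chosen with earlier results of these data known. The text names the 5 genes, the gating genes, 3 genes of similar pattern for each, and up to 4 genes per list and direction. *IRF7*, *TCF4*, *CLEC4C*, *CD8A*, *CD4* and the platelet genes at 0 were also named, as markers. Some genes the rule names, and 1 of the 5 promoter windows with the motif result that rests on it, are not reported here. The computation was checked on simulated counts. Alternatives were other filters, gates, pseudocounts, means over cells, thinning and tag ratios. Sequences and positions are from the RefSeq annotation of Mmul_10. The tools were scanpy 1.11.5, scipy 1.17.1, matplotlib 3.10.9, pandas 2.3.3 and numpy 2.4.6 under Python 3.11.15.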

Additional observations from a re-analysis of the deposited data

Results flagged for a closer look

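UMIs of the genes were also found in barcodes that no comparison used, above the limit that a count of 0 allows there (3.36 CPM in the 290 kept cells without a *CD3E* UMI and 2.32 CPM in the 322 barcodes left out by the cell filter). Kept cells without *CD3E* had 6.71 CPM of *GSTT1* (2.46 to 14.6), 44.8 of *PECAM1* (32.0 to 60.9), 121 of *CD7* (99.1 to 146) and 175 of *PLAC8* (148 to 204), and 3 UMIs of *CA6*, at the limit. Of their 156 *PLAC8* UMIs, 108 came from 3 of the 25 such cells with 3 or more UMIs of pDC marker genes, and the other 265 cells had 65.1 CPM. The left-out barcodes had 19.4 CPM of *CA6* (12.5 to 28.6), 23.2 of *GSTT1* (15.7 to 33.2), 72.1 of *PLAC8*, 72.1 of *PECAM1* (each 58.2 to 88.3, from 93 UMIs) and 239 of *CD7* (214 to 268). No other kind of signal was looked for, since there is 1 sample.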

How the results depend on the processing

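The direction held in 55 of 55 alternatives for naive against other cells and in 60 of 60 for the highest against the lowest CD8 FB quartile, and in 58 of 60 for *SOX4*. A pseudocount cannot reverse a direction, and the naive direction is the one the genes were chosen for, so these counts are a description. Most values (41, 54 and 55) stayed inside the counting interval of the main value. Naive against other cells, the mean over cells gave log2 ratios of 2.04 for *CA6*, 1.87 for *GSTT1*, 1.46 for *PLAC8*, 1.39 for *CD7* and 1.495 for *PECAM1*. Thinning gave 1.37 for *PLAC8*, 1.34 for *CD7* and 1.49 for *PECAM1*. With 2 or more UMIs of both *CCR7* and *LEF1*, *CA6* had 1.44, *GSTT1* 1.38 and *CD7* 1.06. A pseudocount of 10 CPM gave 1.33 for *CA6* and 1.30 for *GSTT1*. Without cells with pDC markers, added after seeing the data, *PLAC8* had 1.31. With *SOX4*, the lowest CD8 FB quartile gave -0.12 for *CA6*, 0.72 for *GSTT1*, 0.37 for *PLAC8* and 0.060 for *CD7*, and 2 or more *SOX4* UMIs gave 0.076 for *CD7*. With the CD8 FB, *PLAC8* had -1.44 without a cell filter, -2.34 thinned and -1.45 by the ratio of CD8 to CD4 FB. With 2 or more UMIs of both gating genes *CD7* had -0.62 and *PECAM1* -0.39, and the mean over cells gave -0.24 for *CD7*. The share of naive cells with 2 or more of the genes was 68.6% without thinning and 19.6% thinned to 1000 UMIs. Thinning lowers the share and a pseudocount shrinks a log2 ratio, each by its own construction. The gate with 2 or more UMIs of both *CCR7* and *LEF1* held 230 cells. Naive cells that failed it were counted among the 7081 others. The cause of the other shifts was not tested.

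No paired analysis was possible because the series has 1 animal, and leaving out a replicate was not possible for the same reason. The median depth was 3656 UMIs a cell, so a cell without a UMI of a gene is not shown to lack it. Doublets were not removed, and CD8 FB, depth and *SOX4* moved together in the naive gate.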

Other observations

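Steps of *CCR7* and *LEF1* were read in cells with at most 2 *GZMB* UMIs and no *FOXP3* or *CCR9*. The first UMI of *CCR7* went with most of the difference in *CA6*, *PLAC8* and *CD7*. *CA6* had 15.4 CPM (12.9 to 18.3) in 2249 cells with 0 *CCR7* UMIs, 44.2 (37.6 to 51.7) in 810 cells with 1, 45.7 (36.9 to 55.9) in 441 cells with 2 and 52.9 (43.7 to 63.5) in 450 cells with 3 or more. *PLAC8* went from 74.0 CPM to 143, 144 and 162, and *CD7* from 304 to 504, 534 and 550.3. With *LEF1* the rise went on to 2 UMIs for *PLAC8*, from 79.6 CPM (74.1 to 85.3) at 0 to 126 (115 to 139) at 1, 196 (176 to 219) at 2 and 177 (155 to 201) at 3 or more.

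With *GZMB* the summed level of *CA6* and *CD7* went down, the last 2 steps of *CA6* overlapping, whereas that of *PLAC8* stayed level beyond the first step. *CD7* had 428 CPM in CD3E+ cells with 0 *GZMB* UMIs, 194 with 1 or 2, 87.1 with 3 to 9 and 70.1 with 10 or more. *CA6* had 33.6, 15.5, 5.76 and 4.01 CPM in the same order. *PLAC8* had 104, 74.1, 74.8 and 73.8 CPM, the last 3 overlapping. The share of cells with *PLAC8* did go down, from 24.8% to 18.3% (15.01 to 22.0), 13.7% (11.8 to 15.9) and 9.61% (8.23 to 11.1), and in thinned cells from 16.5% to 11.1%, 9.18% and 5.27%. Up to 76 *PLAC8* UMIs sat in 1 cell with 10 or more *GZMB* UMIs, and 196 of the 796 in the GZMB+ gate sat in the 11 cells with 3 or more UMIs of pDC markers.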
